A study of Mus musculus with 24 samples.

Results

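Scavenger receptors are membrane proteins with which macrophages bind modified lipoproteins, bacterial surfaces, matrix fragments and dying cells. Their transcripts were followed here in primary mouse microglia, the resident macrophages of the brain, for 9 genes chosen by name: Msr1, Marco, Olr1, Cd36, Scarb1, Scarb2, Mrc1, Stab1 and Cd68. All 9 were among the 12889 genes of the deposited normalized table, and all 9 were among the 13294 genes, of 18919 counted, that passed a filter on low counts. RNA sequencing covered 24 libraries in 8 groups of 3. KO cells were of the strain B6.129S4-Cd14tm1Frm/J, a germline knockout of Cd14 that lacks the LPS co-receptor CD14, and WT cells were of the strain C57BL/6. Cells came from p0 mice, and each condition rested on 3 independent preparations. P-values measure the spread between the libraries of a group, save where a fit that pairs libraries is named. In each genotype the cells were left untreated or were given Re-LPS, a truncated bacterial lipopolysaccharide, at 0.1 or 10 ng/ml, or mouse fibronectin (FN) at 100 µg/ml, for 3 h. How many animals went into a preparation is not given in the sources used here.

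The family has no common fold and is grouped by structure. Msr1 and Marco encode class A receptors, trimers with a collagenous stalk that bind acetylated lipoproteins and bacteria. Olr1 encodes LOX-1, a lectin-like receptor for oxidised low-density lipoprotein, and Mrc1 the mannose receptor CD206. Cd36, Scarb1 and Scarb2 belong to class B: CD36 takes up long-chain fatty acids and oxidised lipoprotein, SR-BI exchanges cholesterol with high-density lipoprotein, and LIMP-2, the Scarb2 product, carries beta-glucocerebrosidase to lysosomes. Stab1 encodes stabilin-1, an endocytic receptor of tissue macrophages, and Cd68 encodes macrosialin, a heavily glycosylated protein of late endosomes and lysosomes. LPS binds TLR4 with the help of CD14 and starts an NF-kB and interferon response in macrophages.

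Levels are CPM, gene counts scaled to a common library size after TMM normalisation (edgeR's trimmed mean of M-values), and changes are given as log2 fold change ± standard error. A gene was called where its adjusted p was under 0.05 in edgeR's quasi-likelihood test, Benjamini-Hochberg adjusted over all 13294 genes, in a model of all 24 libraries. Total counts ran from 14939019 to 22143774 per library. Cd14 had 2.14 to 6.37 CPM in the 12 KO libraries and 338 to 5329 CPM in the 12 WT libraries. At LPS 10 ng/ml Tnf, the stimulus check, reached 5036 to 6929 CPM in KO libraries and 6164 to 7401 CPM in WT ones. Untreated, it had 14.3 to 29.4 CPM in KO and 13.7 to 38.9 CPM in WT libraries. Libraries with the same replicate number deviated together from their group means, so values from a fit with that number as a block (a "replicate block", nested in genotype within a genotype and common to all libraries for KO against WT) are given wherever they change a call. The fit without a block ignores these shared deviations. P-values with a block measure the spread left once the shared deviation of each number is taken out. TMM factors were 0.648 to 0.773 in WT libraries with FN or LPS 10 ng/ml and 1.18 to 1.35 in untreated libraries of both genotypes. Scaling on library totals instead shifted the median of all genes at LPS 10 ng/ml by -0.50 in KO and -0.80 in WT cells, and with FN by -0.16 in KO and -0.78 in WT cells, so every change below is relative to the TMM-scaled middle of all genes. In whole-culture RNA, fewer cells of a type and less RNA per cell cannot be told apart.

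The labelled cell type was checked against its markers: the 10 tested of 11 microglial genes summed to 5373 to 6426 CPM at LPS 10 ng/ml and 6891 to 7749 CPM with FN in KO cells, against 7021 to 7480 CPM untreated. In WT cells they summed to 5876 to 6447 CPM at LPS 10 ng/ml and 5880 to 6363 CPM with FN, against 7322 to 8364 CPM untreated. The sums at LPS 10 ng/ml, and in WT cells with FN, thus lay below all untreated ones, and Siglech stayed under 1 CPM throughout. The border-associated macrophage list had 5 of 9 markers past the filter. These summed to 652 to 768 CPM at LPS 10 ng/ml and 537 to 673 CPM with FN in KO cells, against 478 to 581 CPM in untreated KO cells. In WT cells they summed to 810 to 1287 CPM at LPS 10 ng/ml and 947 to 1313 CPM with FN, against 524 to 1024 CPM untreated. Of that list, Lyve1, Cbr2, Cd163 and Clec10a were under 1 CPM in every library. The highest library had 680 CPM for Siglec1, 557 for Ms4a7, 117 for Pf4, 96.7 for Folr2 and 22.5 for F13a1. Vascular and fibroblast markers, 4 of 10 past the filter, summed to at most 54.2 CPM, and all 3 libraries at LPS 10 ng/ml lay above the untreated libraries in each genotype, while Cldn5, Col1a1, Col1a2, Col3a1, Rgs5 and Dcn stayed under 1 CPM. Oligodendrocyte markers (9 of 9) summed to 82.6 to 124 CPM in KO and 50.5 to 336 CPM in WT libraries, astrocyte markers (6 of 7) to at most 42.1 CPM and neuronal markers (5 of 6) to at most 37.4 CPM; no marker of other leukocytes passed the filter. The part of these lists in the results below was not tested.

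Per kilobase of merged exons, untreated levels ran from Cd68 at the top, with a mean of 1011 CPM per kb in KO and 980 CPM per kb in WT cells, to Olr1 at the bottom, with 0.100 in KO and 0.238 in WT cells. Between them, in order, stood Cd36 (373 in KO, 295 in WT), Stab1 (204 and 247), Msr1 (54.5 and 81.1), Mrc1 (33.7 and 42.8), Scarb2 (28.4 and 27.8), Scarb1 (12.3 and 11.6) and Marco (0.560 and 6.53). The ranges of Cd36 and Stab1 overlapped in both genotypes, as did those of Marco and Olr1. Msr1 and Mrc1, and Mrc1 and Scarb2, overlapped in KO but not in WT cells, while Scarb1 and Marco overlapped in WT but not in KO cells. Stab1 shares 112 exonic bases with Nt5dc2 on the opposite strand, and whether counting used strand is not given in the sources used here; no other member's exons overlap another annotated gene (GENCODE M21, GRCm38).

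**Figure D1:**
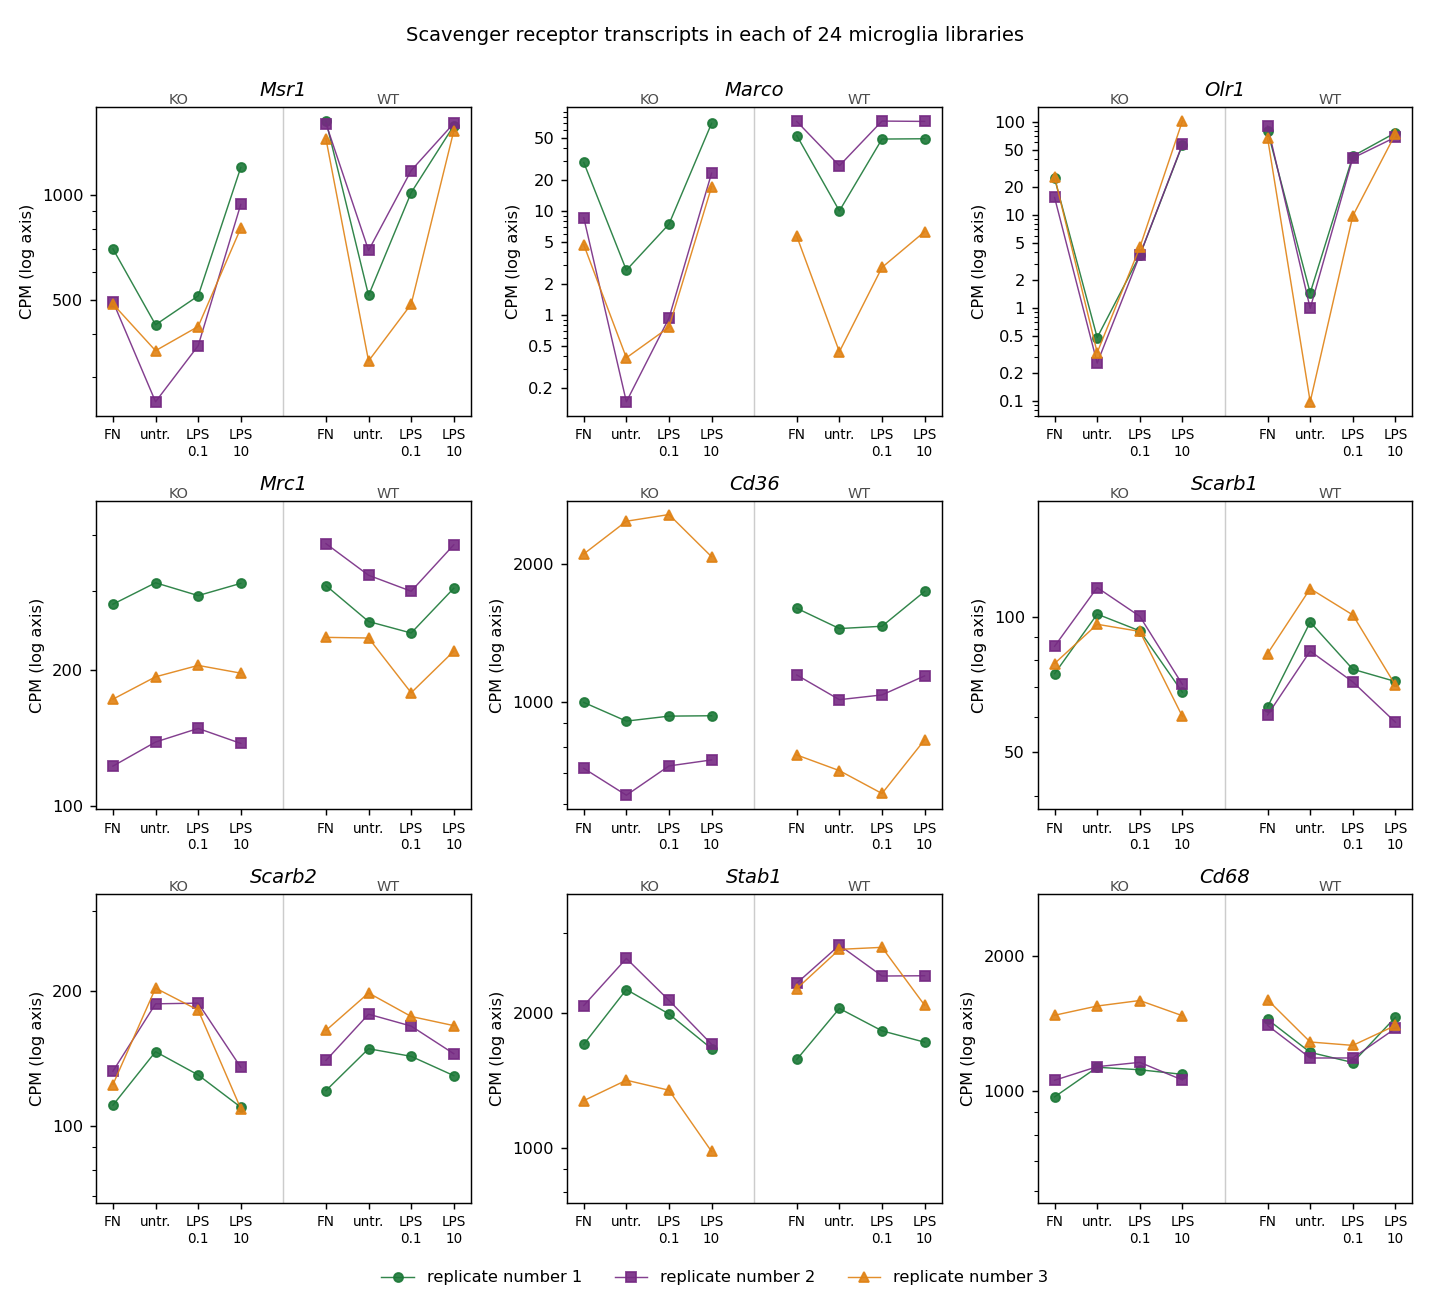
CPM of each receptor gene in every library (log axis; KO left and WT right of the grey line; FN, untreated, LPS 0.1 and LPS 10 ng/ml), with lines joining libraries of the same replicate number within a genotype. Olr1 lies between 56.3 and 102 CPM at LPS 10 ng/ml and at or below 1.45 CPM in untreated cells, whereas within a genotype Cd36 and Mrc1 keep the same order of replicate numbers at every treatment.

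Olr1 was the member that changed most. In KO cells it had 24.8, 15.4 and 25.6 CPM with FN (replicates 1, 2 and 3). Its dose series in KO cells was 0.482, 0.257 and 0.333 CPM untreated, 3.68, 3.69 and 4.48 CPM at LPS 0.1 ng/ml, and 56.3, 57.2 and 102 CPM at LPS 10 ng/ml. No library of one dose overlapped another dose. In WT cells it had 79.6, 89.9 and 66.5 CPM with FN. The WT series was 1.45, 0.994 and 0.0987 CPM untreated (28, 21 and 2 reads), 42.7, 40.8 and 9.77 CPM at LPS 0.1 ng/ml, and 76.1, 68.2 and 73.9 CPM at LPS 10 ng/ml. All stimulated libraries lay above all untreated ones in both genotypes, and WT replicate 3 was the lowest WT library untreated and at the low dose.

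The Olr1 rise was called for every stimulus. In KO cells it was 3.46 ± 0.62 at LPS 0.1 ng/ml (adjusted p = 0.00647), 7.64 ± 0.70 at LPS 10 ng/ml (8.59e-08) and 5.93 ± 0.66 with FN (4.2e-06). The low-dose call in KO cells ended without KO untreated replicate 2 (adjusted p = 0.0802). In WT cells it was 5.19 ± 0.62 at LPS 0.1 ng/ml (8.24e-06), 6.41 ± 0.65 at LPS 10 ng/ml (1.57e-07) and 6.53 ± 0.65 with FN (1.3e-07).

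Msr1, the receptor that first defined the family, started from a high level and rose less. In KO cells it had 701, 495 and 487 CPM with FN. Its KO dose series was 424, 255 and 358 CPM untreated, 514, 369 and 420 CPM at LPS 0.1 ng/ml, and 1201, 941 and 804 CPM at LPS 10 ng/ml. The high-dose and FN libraries lay above every untreated KO library, while the low dose overlapped them. In WT cells it had 1633, 1607 and 1451 CPM with FN, and 516, 694 and 334 CPM untreated, 1017, 1178 and 486 CPM at LPS 0.1 ng/ml, and 1584, 1609 and 1530 CPM at LPS 10 ng/ml. The low-dose WT libraries overlapped the untreated ones through replicate 3. At LPS 10 ng/ml the rise was 1.51 ± 0.30 in KO cells (adjusted p = 0.00039) and 1.61 ± 0.30 in WT cells (0.000154), and with FN it was 1.60 ± 0.30 in WT cells (0.000158). The values with FN in KO cells (0.70 ± 0.29, adjusted p = 0.118) and at LPS 0.1 ng/ml in WT cells (0.80 ± 0.29, 0.0744) were not called, and passed in the nested replicate block (0.70 ± 0.19, 0.00765, and 0.78 ± 0.19, 0.00419). The WT low-dose value also passed without WT LPS 0.1 ng/ml replicate 3 (1.09, adjusted p = 0.00591) or WT untreated replicate 2 (1.07, 0.0333), without the 3 libraries richest in Rn45s (1.09, 0.00928) and by DESeq2 (0.81, 0.0324). At LPS 0.1 ng/ml in KO cells Msr1 differed by 0.33 ± 0.29 (adjusted p = 1).

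Marco, the other class A receptor, varied widely between the libraries of a group. In KO cells it had 29.3, 8.62 and 4.74 CPM with FN, and 2.70, 0.147 and 0.388 CPM untreated, 7.48, 0.935 and 0.763 CPM at LPS 0.1 ng/ml, and 69.7, 23.1 and 17.1 CPM at LPS 10 ng/ml. In WT cells it had 53.2, 72.7 and 5.72 CPM with FN, and 10.0, 27.3 and 0.444 CPM untreated, 49.2, 73.3 and 2.87 CPM at LPS 0.1 ng/ml, and 49.5, 72.7 and 6.34 CPM at LPS 10 ng/ml. Replicate 1 was the highest KO library at every treatment, and replicate 3 the lowest WT library, its stimulated libraries lying below both other untreated WT libraries. Within each replicate number, every stimulated library was above its untreated partner. Untreated KO replicates 2 and 3 held 4 and 7 Marco reads.

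In edgeR without a block, the Marco rise was called in KO cells at LPS 10 ng/ml (5.09 ± 1.63, adjusted p = 0.0166), and that call ended without KO LPS 10 ng/ml replicate 1 (0.0519), KO untreated replicate 2 (0.068) or KO untreated replicate 3 (0.062). In KO cells with FN it was 3.73 ± 1.54 (adjusted p = 0.117), a difference DESeq2 did call (3.73, 0.0258). WT cells at the high dose gave 1.77 ± 1.38 (adjusted p = 0.326). With the nested replicate block Marco was called in KO cells with FN (3.84 ± 0.43, adjusted p = 5.49e-06), and in WT cells at LPS 0.1 ng/ml (1.79 ± 0.30, 0.000244), at LPS 10 ng/ml (1.97 ± 0.31, 3.81e-05) and with FN (2.0 ± 0.30, 2.89e-05). At LPS 0.1 ng/ml in KO cells it stayed uncalled (1.53 ± 0.51, adjusted p = 0.146 in the block).

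Promoter sequence was read for the 7 members in the RefSeq table (GRCm38.p6, 250 bases before to 50 after the start): Cd36, Cd68, Marco, Mrc1, Olr1, Scarb2 and Stab1. The windows of Olr1, which rose with every stimulus, and of Marco are shown beside that of Cd68, which was not called against untreated cells with TMM scaling and no block. Capitals mark matches to the AP-1 motif TGANTCA or to the PU.1 core, which was searched as the letters GAGGAA; each match can lie on either strand, and no match overlaps another.
Olr1, chr6:129507116-129507415, minus strand: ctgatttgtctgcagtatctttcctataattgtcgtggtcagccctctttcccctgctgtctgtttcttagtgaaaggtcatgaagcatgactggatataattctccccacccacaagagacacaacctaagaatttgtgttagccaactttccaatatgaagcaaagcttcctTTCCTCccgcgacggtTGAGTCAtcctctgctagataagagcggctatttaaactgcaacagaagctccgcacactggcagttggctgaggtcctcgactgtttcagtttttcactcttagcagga
Marco, chr1:120504975-120505274, minus strand: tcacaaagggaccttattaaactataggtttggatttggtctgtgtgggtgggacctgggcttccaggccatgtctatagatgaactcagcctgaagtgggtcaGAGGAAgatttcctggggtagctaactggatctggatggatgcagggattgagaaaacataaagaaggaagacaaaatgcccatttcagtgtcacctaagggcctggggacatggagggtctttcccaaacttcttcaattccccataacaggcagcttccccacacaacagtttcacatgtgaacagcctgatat
Cd68, chr11:69666121-69666420, minus strand: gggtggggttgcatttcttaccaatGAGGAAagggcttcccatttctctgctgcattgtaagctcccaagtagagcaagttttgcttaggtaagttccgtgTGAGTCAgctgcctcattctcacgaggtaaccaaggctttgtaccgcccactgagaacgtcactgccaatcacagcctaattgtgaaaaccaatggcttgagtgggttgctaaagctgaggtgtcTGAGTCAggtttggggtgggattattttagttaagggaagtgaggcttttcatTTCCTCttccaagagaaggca

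The AP-1 letters stand in the Olr1 window at position -60 and in the Cd68 window at -149 and -24, counted from the start site, and in 2 of the 7 members' windows in all, against 7.81% of 32851 promoters of that length. The PU.1 core was in 5 of the 7 (Cd68, Marco, Mrc1, Olr1 and Stab1), against 28.3% of all promoters. In Marco the capitals mark the PU.1 core at -146. The NF-kB consensus was in 1 of 7, in Scarb2 at -199 (8.46% of all promoters), and the interferon-regulatory-factor letters GAAANNGAAA (3.44%) and the E-box CACGTG (7.15%) were in none. Olr1 and Cd68, which hold the same AP-1 letters, had log2 fold changes of 7.64 ± 0.70 and -0.074 ± 0.18 in KO cells at LPS 10 ng/ml.

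Mrc1, the mannose receptor, was not called against untreated cells by edgeR without a block. It ranged from 123 to 313 CPM over the 12 KO libraries and from 178 to 382 CPM over the 12 WT libraries. Its differences from untreated cells ran from -0.16 ± 0.36 with FN to 0.0042 ± 0.36 at LPS 0.1 ng/ml in KO cells, and from -0.18 ± 0.36 at LPS 0.1 ng/ml to 0.18 ± 0.36 with FN in WT cells. In the nested block the WT value at LPS 0.1 ng/ml was called as lower (-0.20 ± 0.069, adjusted p = 0.0233), and the WT value with FN as higher (0.16 ± 0.069, 0.0403).

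Cd36 differed between replicate numbers far more than between treatments. KO replicate 3 had 2106 CPM with FN, 2482 untreated, 2567 at LPS 0.1 ng/ml and 2077 at LPS 10 ng/ml, while the other KO libraries had 628 to 999.9 CPM. In WT cells replicate 1 had 1449 to 1745 CPM, replicate 2 had 1014 to 1147 CPM and replicate 3 had 633 to 829 CPM. The replicate number held 98.1% of the variance of log2(CPM + 1) in KO and 93.9% in WT cells, and treatment 0.271% and 5.25%. None of the stimuli changed Cd36 past the test, with estimates between -0.096 ± 0.58 and 0.073 ± 0.58 in KO cells and between -0.016 ± 0.58 and 0.23 ± 0.58 in WT cells. In the nested block the WT value at LPS 10 ng/ml was called (0.22 ± 0.084, adjusted p = 0.0254).

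**Figure D2:**
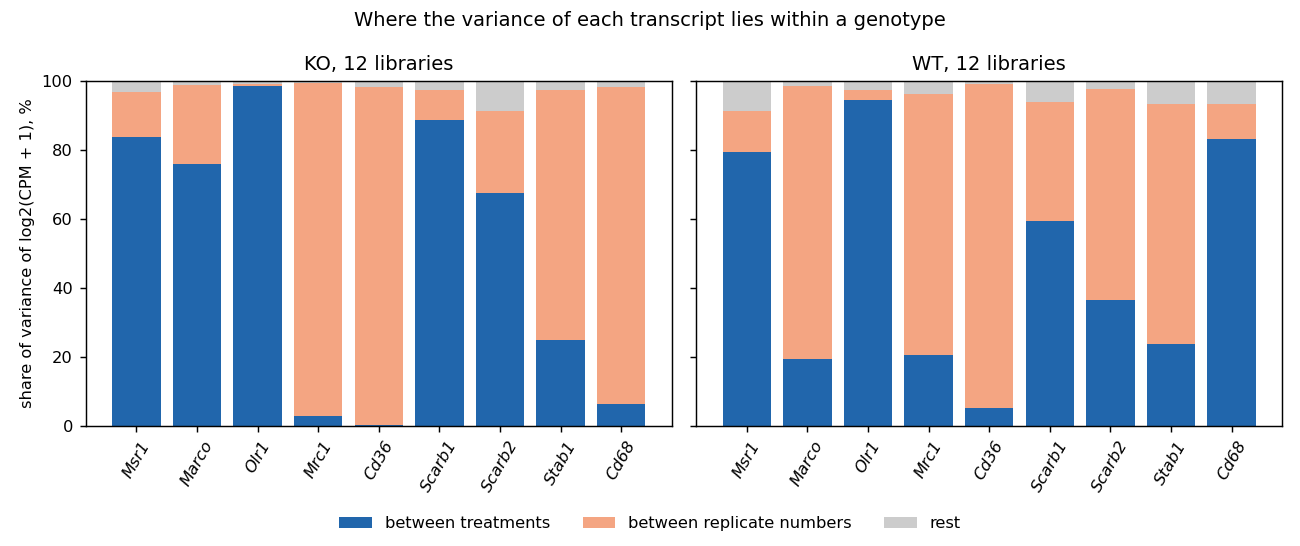
Share of the variance of log2(CPM + 1) that lay between treatments (blue), between replicate numbers (orange) and in the rest (grey), in the 12 KO libraries (left) and the 12 WT libraries (right). Treatment holds 98.5% for Olr1 in KO cells and 94.5% in WT cells, while replicate number holds over 90% for Cd36 in both. For Cd68 treatment holds 6.18% in KO and 83.3% in WT cells. These are shares of unlike totals, since the SD of Cd68 within a group was 229 to 269 CPM in KO and 42.0 to 103 CPM in WT cells. With TMM scaling and no block, Cd68 was not called against untreated cells in either genotype.

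Scarb1, a class B gene, fell in both genotypes at the high dose. In KO cells it had 74.8, 86.0 and 78.8 CPM with FN, and 101, 116 and 96.2 CPM untreated, 93.0, 100.2 and 92.8 CPM at LPS 0.1 ng/ml, and 68.0, 70.8 and 60.1 CPM at LPS 10 ng/ml. In WT cells it had 63.1, 60.6 and 82.9 CPM with FN, and 97.3, 83.9 and 115 CPM untreated, 76.5, 71.7 and 101 CPM at LPS 0.1 ng/ml, and 71.8, 58.4 and 70.5 CPM at LPS 10 ng/ml. At the high dose and with FN all libraries of both genotypes lay below all untreated ones of their genotype. At LPS 10 ng/ml Scarb1 fell by 0.66 ± 0.15 on the log2 scale in KO cells (log2 fold change -0.66, adjusted p = 0.00133) and by 0.56 ± 0.15 in WT cells (-0.56, 0.00351). With FN the change was -0.39 ± 0.15 in KO cells (adjusted p = 0.0818) and -0.52 ± 0.15 in WT cells (0.00601). The KO value with FN was called in the nested block (-0.39 ± 0.071, adjusted p = 0.000221), as was the WT value at LPS 0.1 ng/ml (-0.25 ± 0.071, 0.00779).

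Scarb2 fell in KO cells at the high dose and with FN. There it had 112, 133 and 124 CPM with FN, and 147, 187 and 203 CPM untreated, 130, 188 and 181 CPM at LPS 0.1 ng/ml, and 110, 135 and 110 CPM at LPS 10 ng/ml, so that FN and the high dose lay below every untreated KO library. WT libraries ran from 120 to 163 CPM with FN, and from 149 to 198 CPM untreated, 143 to 175 CPM at LPS 0.1 ng/ml and 130 to 167 CPM at LPS 10 ng/ml, each range overlapping the untreated one. In KO cells the change was -0.59 ± 0.16 at LPS 10 ng/ml (adjusted p = 0.00666), while FN gave -0.54 ± 0.16 (0.0294). Both calls ended with the groups compared alone (adjusted p = 0.0523 for LPS 10 ng/ml and 0.0855 for FN), and the FN call also ended without KO FN replicate 1 (0.116) or 3 (0.0737) or KO untreated replicate 2 (0.0916) or 3 (0.111). The WT changes were -0.25 ± 0.16 at LPS 10 ng/ml and -0.31 ± 0.16 with FN, and they were called on library totals (-1.05 and -1.09) and in the nested block (-0.24 ± 0.080, adjusted p = 0.0109, and -0.31 ± 0.080, 0.00196).

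Stab1 and Cd68, genes of endocytic and lysosomal proteins, had small differences whose call turned on the scaling and the block. Stab1 ran from 984 to 2637 CPM in KO and from 1575 to 2822 CPM in WT libraries, and replicate 3 was the lowest KO library at each treatment. Its log2 fold changes were -0.54 ± 0.28 in KO and -0.30 ± 0.28 in WT cells for LPS 10 ng/ml, and -0.32 ± 0.28 in KO and -0.31 ± 0.28 in WT cells for FN, all uncalled. The KO value at LPS 10 ng/ml was called without KO untreated replicate 3 (-0.75, adjusted p = 0.0406). On library totals Stab1 was called lower at LPS 10 ng/ml in KO (-1.04, adjusted p = 0.0119) and WT cells (-1.09, 0.00654) and with FN in WT cells (-1.08, 0.00685). All 4 were called in the nested block, in the same order at -0.53 ± 0.078, -0.29 ± 0.078, -0.30 ± 0.078 and -0.31 ± 0.078 (adjusted p = 7.63e-06, 0.0026, 0.00439 and 0.00141).

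Cd68 ran from 972 to 1591 CPM in KO libraries, with replicate 3 the highest at each treatment. In WT cells it had 1444, 1401 and 1597 CPM with FN, and 1221, 1186 and 1287 CPM untreated, 1159, 1186 and 1265 CPM at LPS 0.1 ng/ml, and 1460, 1379 and 1400 CPM at LPS 10 ng/ml. The WT libraries at the high dose and with FN lay above the untreated ones, by 0.20 ± 0.18 (adjusted p = 0.397) and 0.27 ± 0.18 (0.234), and passed in the nested block (0.20 ± 0.059, 0.00521, and 0.26 ± 0.059, 0.000514). On library totals these WT values turned to -0.60 (adjusted p = 0.0087) and -0.52 (0.0207), against medians of all genes of -0.80 and -0.78 on that scale. In KO cells Cd68 differed by -0.074 ± 0.18 at LPS 10 ng/ml and -0.12 ± 0.18 with FN, and on library totals by -0.56 (adjusted p = 0.0186) at LPS 10 ng/ml.

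Counted together, 1 of 9 members rose and none fell at LPS 0.1 ng/ml in KO cells, where 0.722% of all tested genes rose, and likewise 1 of 9 in WT cells, where 9.94% rose. At LPS 10 ng/ml 3 rose and 2 fell in KO cells, beside 21.2% and 21.6% of all genes, and 2 rose and 1 fell in WT cells, beside 23.3% and 26.1%. With FN 1 rose and 1 fell in KO cells, beside 9.23% and 7.17%, and 2 rose and 1 fell in WT cells, beside 23.7% and 26.5%. The median log2 fold change of the 9 at LPS 10 ng/ml was -0.074 in KO cells, where that of all genes was -0.013, and 0.20 in WT cells, where it was -0.0059. On library totals the split at LPS 10 ng/ml was 3 higher and 4 lower in KO and 2 higher and 4 lower in WT cells, and with FN 2 higher and 4 lower in WT cells. The 4 lower were Scarb1, Scarb2, Stab1 and Cd68 each time. On that scale 1502 of all 13294 genes were higher and 5630 lower in KO cells at LPS 10 ng/ml. In WT cells 1444 were higher and 7408 lower at LPS 10 ng/ml, and 1490 and 7389 with FN. In the nested block 1, 6 and 6 members were called in KO cells at LPS 0.1 ng/ml, LPS 10 ng/ml and with FN, beside 3.87%, 66.0% and 44.0% of all genes, and 5, 8 and 8 in WT cells, beside 41.5%, 70.2% and 72.0%.

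**Figure D3:**
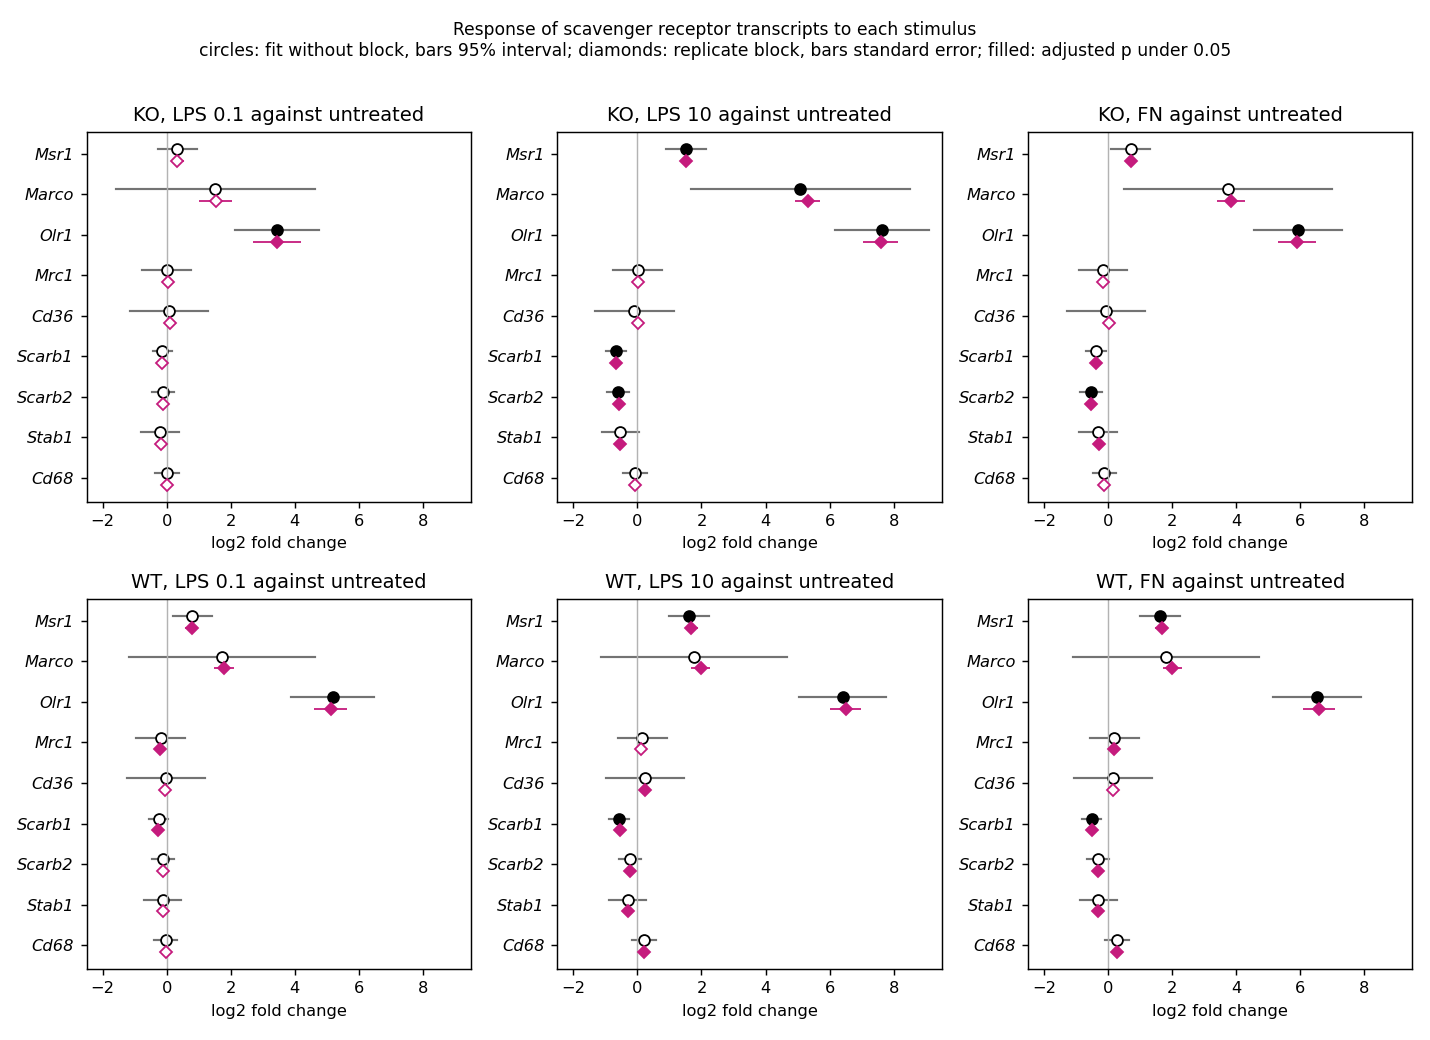
Log2 fold change of each member for each stimulus against untreated cells, KO above and WT below. Circles are the fit without a block with 95% intervals, diamonds the nested replicate block with standard errors, and filled symbols have an adjusted p under 0.05. The bars of circles and diamonds are thus unlike measures. For Marco in KO cells at LPS 10 ng/ml the standard error was 1.63 without a block (95% interval 1.67 to 8.51) and 0.41 in the block.

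The high dose of LPS was compared with the low dose directly. In KO cells Olr1 was higher at 10 than at 0.1 ng/ml by 4.18 ± 0.57 (adjusted p = 1.52e-05) and Msr1 by 1.18 ± 0.29 (0.00368), while Scarb1 was lower (-0.52 ± 0.15, 0.00871) and so was Scarb2 (-0.49 ± 0.16, 0.025). These are 2 of 9 higher and 2 of 9 lower, beside 18.3% and 18.5% of all genes. The Scarb2 call ended without KO LPS 10 ng/ml replicate 1 (0.0868) or 3 (0.0879) or KO LPS 0.1 ng/ml replicate 2 (0.113) or 3 (0.0865), with the groups compared alone (0.108) and without the 3 libraries richest in Rn45s (0.115). In WT cells Msr1 alone was called (0.82 ± 0.29, adjusted p = 0.038, beside 14.8% of all genes higher). That call ended without WT LPS 10 ng/ml replicate 1 (0.0825), 2 (0.0808) or 3 (0.0687) or WT LPS 0.1 ng/ml replicate 3 (0.202), with the groups compared alone (0.119), without a filter (0.0606), without the libraries richest in Rn45s (0.268), and on library totals (0.29, adjusted p = 0.373), where Scarb1 (-0.90) and Scarb2 (-0.70) were called lower. In KO cells library totals added Cd68 as lower (-0.50, adjusted p = 0.0357), and Marco (3.57 ± 1.49, 0.0706) was called without KO LPS 0.1 ng/ml replicate 1 (5.42, 0.0381), by DESeq2 (0.0163) and by limma (0.0442). Olr1 differed between the doses by 1.23 ± 0.51 in WT cells (adjusted p = 0.0745), which DESeq2 (0.0269) and limma (0.00851) called. The nested block called 6 members in KO cells, adding Marco (3.78 ± 0.35) and Stab1 (-0.34 ± 0.078), beside 62.8% of genes, and 6 in WT cells, beside 57.0%, adding Olr1 (1.38 ± 0.33), Cd36 (0.26 ± 0.084), Mrc1 (0.33 ± 0.069) and Cd68 (0.23 ± 0.059) as higher and Scarb1 (-0.30 ± 0.073) as lower.

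FN and LPS 10 ng/ml were set side by side. In KO cells Olr1 was lower with FN (-1.71 ± 0.51, adjusted p = 0.0274), 1 of 9 beside 9.43% of all genes lower. This call ended without KO FN replicate 1 (0.0597), 2 (0.122) or 3 (0.0567) or KO LPS 10 ng/ml replicate 3 (0.111). On library totals Scarb1 was also called, higher with FN (0.62 ± 0.19, adjusted p = 0.0207). The nested block called 5 members in KO cells, beside 44.8% of genes: Olr1, Marco (-1.47 ± 0.29) and Msr1 (-0.81 ± 0.19; also called by DESeq2, 0.0227, and without the libraries richest in Rn45s, 0.0333) lower with FN, and Scarb1 (0.27 ± 0.072) and Stab1 (0.23 ± 0.078) higher. In WT cells edgeR called none of the 9, DESeq2 and limma none, and none had an unadjusted p under 0.05. Of all genes 0.0% were called, 0.0% in the nested block, and 105 of 13294 had an unadjusted p under 0.05 without a block. That share is below the 0.05 that evenly spread p-values would give, so these p-values do not measure how alike FN and LPS 10 ng/ml are. The WT differences ran from -0.08 ± 0.58 for Cd36 to 0.11 ± 0.50 for Olr1, whose 95% interval was -0.94 to 1.16.

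KO and WT cells were compared at each treatment. Untreated, edgeR called 0 of 9 members and 0.00752% of all genes; DESeq2 and limma called none of the 9. Marco, at -3.55 ± 1.53 (95% interval -6.78 to -0.32), was the 1 member with an unadjusted p under 0.05 (adjusted p = 1). At LPS 0.1 ng/ml Olr1 (-2.97 ± 0.54, adjusted p = 0.0014) and Msr1 (-1.04 ± 0.29, 0.0302) were lower in KO cells, 2 of 9 beside 6.33% of all genes lower. Fitted on those 6 libraries by themselves, neither was called (adjusted p = 0.0634 for Olr1 and 0.197 for Msr1). The Msr1 call also ended when KO replicate 2 (0.118) or 3 (0.103) or WT replicate 1 (0.136) or 2 (0.183) of that dose was left out. The highest KO library, at 514 CPM, lay above WT replicate 3, at 486 CPM.

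At LPS 10 ng/ml Olr1 averaged 71.7 ± 26.0 CPM in KO and 72.8 ± 4.07 CPM in WT cells (SD, n = 3 each), a log2 fold change of -0.021 ± 0.50 with a 95% interval of -1.07 to 1.03. EdgeR, DESeq2 and limma called none of the 9 there, beside 15.9% of all genes called by edgeR. Msr1, at -0.68 ± 0.29 (adjusted p = 0.133), was the 1 member with an unadjusted p under 0.05. Its KO libraries, at 804 to 1201 CPM, all lay below its WT libraries, at 1530 to 1609 CPM. With FN Msr1 (-1.48 ± 0.29, adjusted p = 0.000517) and Olr1 (-1.84 ± 0.52, 0.00783) were lower in KO cells, 2 of 9 beside 17.6% of all genes lower, with no overlap between the KO and WT libraries of either gene. On library totals, which shifted the median of all genes by 0.68 here, both remained lower (-0.83 and -1.20, adjusted p = 0.00863 and 0.037) and Scarb1 was higher in KO cells (0.87 ± 0.19, 0.000682), where it was 0.21 ± 0.15 with TMM. Mrc1 (-0.69 ± 0.37, adjusted p = 0.157) was called lower without KO FN replicate 1 (-1.06, 0.0451) and Cd68 (-0.34 ± 0.18, 0.143) without KO FN replicate 3 (-0.54, 0.0259).

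The replicate block over all libraries takes like numbers as pairs across the genotypes. Deviations of like numbers correlated there at 0.372 to 0.484 for replicates 2 and 0.209 to 0.302 for replicates 3. Both ranges lie within that of unlike numbers, -0.793 to 0.752, so the calls of this block rest on a pairing that is not distinct. With it, 0 of 9 members were called untreated (0.143% of genes). At LPS 0.1 ng/ml 3 were called (18.9%), adding Marco, lower in KO cells (-3.56 ± 0.91, adjusted p = 0.0109), which DESeq2 called without a block (-3.79, 0.0316). At LPS 10 ng/ml 2 were called (25.1%), both lower in KO cells, Msr1 (-0.71 ± 0.25, 0.044) and Scarb2 (-0.31 ± 0.098, 0.0283; 0.015 on library totals without a block). With FN 3 were called (50.1%), adding Cd68, lower in KO cells (-0.36 ± 0.12, 0.0181; 0.32 on library totals without a block).

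**Figure D4:**
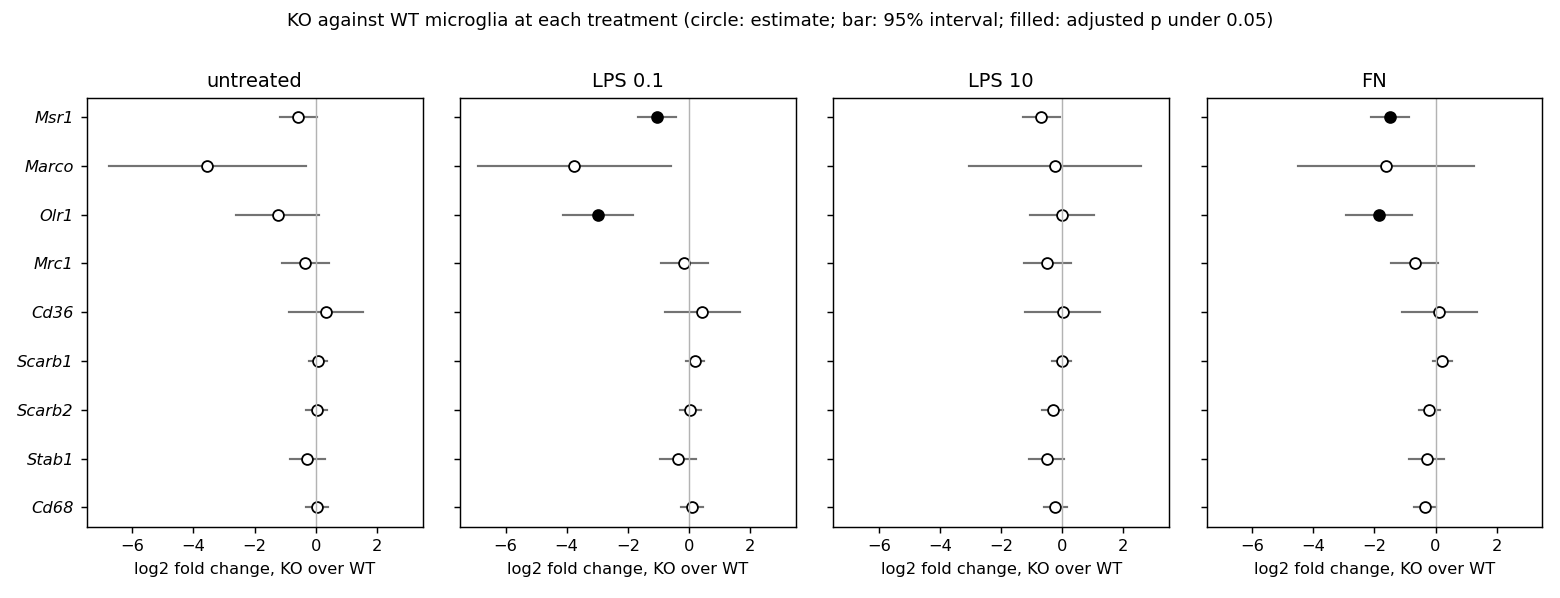
Log2 fold change of KO over WT cells for each member untreated, at LPS 0.1 and 10 ng/ml and with FN, with 95% intervals from the fit without a block; filled circles have an adjusted p under 0.05. Msr1 and Olr1 are filled at LPS 0.1 ng/ml and with FN and open at LPS 10 ng/ml, where the Olr1 estimate is -0.021 and the Msr1 estimate -0.68.

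Whether a stimulus changed a member differently in KO and WT cells was tested as the interaction, the KO log2 fold change minus the WT one. EdgeR called 0 of 9 members for LPS 0.1 ng/ml (2.29% of all genes), LPS 10 ng/ml (5.28%) and FN (23.1%), as did DESeq2 and limma, and the members with an unadjusted p under 0.05 numbered 0, 0 and 1, the last being Msr1 (-0.91 ± 0.41). For Olr1 the interactions were -1.73 ± 0.85, 1.22 ± 0.81 and -0.60 ± 0.85. The nested block called 0 of 9 members for LPS 0.1 ng/ml (13.4%), 3 for LPS 10 ng/ml (21.7%) and 4 for FN (49.3%). In that fit Marco rose more in KO cells under LPS 10 ng/ml (3.34 ± 0.54, adjusted p = 0.000551) as well as FN (1.83 ± 0.55, 0.0132), and Msr1 rose less with FN (-0.97 ± 0.27, 0.00777). On library totals without a block the Msr1 value was -0.26, uncalled, beside an all-gene median of 0.65.

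The genes most like each member, by Pearson's r of log2(CPM + 1) over the 24 libraries among 9582 genes averaging at least 5 CPM, are named as a description, since these libraries share treatments and replicate numbers. Olr1 ran closest to Tnf (r = 0.993), Nfkbiz (0.990) and Nfkb1 (0.990). Msr1 ran closest to Cp (0.981), Il2rg (0.972) and Il1rn (0.965), and Marco to Fpr1 (0.922), Pilra (0.921) and Mmp9 (0.920). For Cd36 they were Ttc17 (0.922), Cdk14 (0.908) and Lpl (0.902), for Scarb1 Numa1 (0.940), Susd3 (0.939) and Phka2 (0.938), and for Scarb2 Gusb (0.886), Parn (0.882) and Zcchc11 (0.879). Mrc1 ran closest to Dock2 (0.929), Pi4ka (0.920) and Iqgap2 (0.897), Stab1 to Sulf2 (0.936), BC026585 (0.905) and Man2b2 (0.904), and Cd68 to Ctsb (0.894), Atp6v0e (0.877) and Pmp22 (0.873).

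Further scavenger receptor genes, 13 of 18 tested, moved both ways at LPS 10 ng/ml: 2 rose and 4 fell in KO cells, and 2 rose and 3 fell in WT cells (1 and 5 in each on library totals). These counts stand beside 21.2% of all genes higher and 21.6% lower in KO cells and 23.3% higher and 26.1% lower in WT cells. On library totals 1502 of 13294 genes were higher and 5630 lower in KO cells, and 1444 and 7408 in WT cells. The same shares apply to the lists that follow. Cxcl16, whose membrane form binds oxidised lipids, rose by 1.94 ± 0.25 in KO (adjusted p = 5.59e-06) and 2.0 ± 0.25 in WT cells (2.33e-06). Lrp1, a large endocytic receptor, changed by -0.67 ± 0.12 in KO (0.000117) and -0.39 ± 0.11 in WT cells (0.00864), the WT call ending without WT LPS 10 ng/ml replicate 3 (0.0535) and in a fit of those groups alone (0.0602). Colec12, a collectin receptor, changed by -0.44 ± 0.16 in KO cells (0.0301), a call lost with RLE scaling (0.0566), with the groups alone (0.0631) and without KO LPS 10 ng/ml replicate 1 (0.088) or 3 (0.0673) or KO untreated replicate 3 (0.127).

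Genes of lipid uptake and storage (15 of 15 tested) also split: 2 rose and 4 fell in KO cells and 3 rose and 4 fell in WT cells at LPS 10 ng/ml. In the nested block these became 4 and 7 in KO and 5 and 6 in WT cells, where 66.0% and 70.2% of all genes were called, and on library totals 0 and 7 in KO and 2 and 12 in WT cells. Nceh1, a cholesteryl ester hydrolase, fell in both (-1.44 ± 0.29 in KO, -1.41 ± 0.29 in WT), and so did Soat1, which esterifies cholesterol (-1.05 ± 0.30 in KO, -1.06 ± 0.30 in WT). Acsl1, which activates fatty acids, rose by 1.26 ± 0.36 in KO and 1.68 ± 0.36 in WT cells, and Fabp4, a fatty acid carrier, by 1.17 ± 0.44 in KO and 1.97 ± 0.45 in WT cells. In KO cells the Fabp4 and Acsl1 calls did not hold on library totals (adjusted p = 0.203 and 0.0581), and the Acsl1 call ended without KO LPS 10 ng/ml replicate 1 (0.0649). The KO Fabp4 call ended without KO LPS 10 ng/ml replicate 3 (0.201) or KO untreated replicate 1 (0.142) or 2 (0.147), without the filter (0.0581) and with the groups alone (0.0602), and the KO Soat1 call without KO untreated replicate 3 (0.0585).

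Lysosomal genes (12 of 12 tested) were largely uncalled at LPS 10 ng/ml. In KO cells 1 fell and none rose by edgeR, with the same count by DESeq2 and limma, and none was called with RLE scaling or with the groups alone. In WT cells edgeR and limma called 0 and DESeq2 2, and 1 had an unadjusted p under 0.05. In the nested block 6 fell in KO cells, and 5 rose and 1 fell in WT cells, beside 66.0% and 70.2% of all genes called. On library totals 9 fell in each, beside 5630 of 13294 genes lower in KO and 7408 in WT cells.

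Transcription factors known to act on scavenger receptor genes (15 of 16 tested) changed most widely: 6 rose and 8 fell in KO cells and 4 rose and 9 fell in WT cells under LPS 10 ng/ml (3 and 9 in KO, 2 and 11 in WT on library totals). Their median log2 fold change was -1.34 in KO and -0.84 in WT cells. Cebpa, a myeloid differentiation factor, changed by -3.43 ± 0.36 in KO and -5.51 ± 0.40 in WT cells. Rxra, a partner of lipid-sensing nuclear receptors, changed by -2.09 ± 0.21 in KO and -2.89 ± 0.22 in WT cells. Tfeb, a regulator of lysosomal genes, changed by -4.00 ± 0.36 in WT cells. Its KO mean was also lower, at 8.43 CPM against 33.5 CPM untreated. Fos, a subunit of AP-1, changed by -2.38 ± 0.37 in KO cells. In WT cells the Fos mean was likewise lower, at 30.9 CPM against 79.8 CPM untreated.

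Of 13 tested genes for proteins that signal or engulf together with scavenger receptors, 5 rose and 2 fell in KO cells and 8 rose and none fell in WT cells under LPS 10 ng/ml (3 and 5 in KO, 4 and 4 in WT on library totals), beside 21.2% higher and 21.6% lower of all genes in KO and 23.3% and 26.1% in WT cells. Tlr2, which pairs with CD36 at the membrane, rose by 4.18 ± 0.32 in KO and 3.84 ± 0.32 in WT cells. The kinase gene Syk rose by 2.94 ± 0.24 in KO and 1.94 ± 0.23 in WT cells, and Lyn by 1.34 ± 0.24 in KO and 1.51 ± 0.24 in WT cells. Mertk, a receptor for dying cells, fell in KO cells (-2.22 ± 0.25) and was higher in WT cells (0.71 ± 0.24, adjusted p = 0.0177), by less than the all-gene shift of -0.80 that library totals bring there. Cd14 rose by 2.43 ± 0.49 in WT cells.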

How the data were processed

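The submitters' processing notes name mm10, the aligner Bowtie2 2.1.0, the counter HTSeq 0.5.4 and DESeq, beside SAMtools 0.1.19, CASAVA 1.8.2 and FastQC 0.10.0; the annotation and the strand setting are not given in the sources used here. The authors deposited whole read counts per gene and a normalized signal, in which each library's counts had been divided by 1 constant (deviation at most 0.0323% for genes over 1000 counts). Libraries of a group differed beyond sampling noise (chi-square per degree of freedom at least 36.8) and were counted singly.

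The counts were tested with edgeR 4.0.16 (R 4.3.3): filterByExpr with a minimum count of 10 and total of 15, TMM, robust glmQLFit on 8 groups with 16 residual degrees of freedom, 17 contrasts, Benjamini-Hochberg adjustment over all 13294 genes, prior count 0.125, standard errors as absolute log2 fold change over the square root of F, and 95% intervals from t. CPM were taken over TMM-scaled library sizes. The test was also run on simulated counts that held no effect of replicate number. These libraries do share deviations by number, so that run does not show how the test behaves under pairing. Alternatives were DESeq2 1.42.0, limma 3.58.1 on log2(normalized signal + 1), RLE scaling, no filter, at least 5 CPM in 3 libraries, the groups alone, replicate blocks, leaving out each library or the 3 richest in Rn45s, a ribosomal RNA precursor, and, added after seeing the data, library totals. The members, lists and tests were chosen with earlier results of these data known. All 9 members are named; of each other list all members are counted and up to 4 called ones with the largest change and at least 5 CPM in the higher group are named. Values of some list genes are not reported here.

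Replicate numbers were checked for pairing over 9582 genes. Same-numbered libraries correlated in their deviations at 0.642 to 0.967 within a genotype (other numbers -0.785 to 0.391) and between genotypes at the same treatment the range was 0.822 to 0.878 (replicates 1), 0.372 to 0.484 (replicates 2) or 0.209 to 0.302 (replicates 3). Unlike numbers gave -0.793 to 0.752 there, which covers the values of replicates 2 and 3. Every same-numbered pair exceeded 0.1, so the numbers were taken to pair the libraries. Between genotypes that threshold cannot tell like from unlike numbers, since unlike ones reached 0.752. This pairing comes from the data and is less distinct between genotypes, while the series describes independent preparations.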

Additional observations from a re-analysis of the deposited data

Results flagged for a closer look

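For 7 combinations of gene and stimulus the KO and WT responses differed in the fit with the replicate block nested in genotype, though none of the 7 was called without a block. That fit called such a difference for 21.7% of all genes with LPS 10 ng/ml and for 49.3% with FN. Each value is the KO log2 fold change minus the WT one, with edgeR's adjusted p. For LPS 10 ng/ml they were Marco at 3.34 ± 0.54 (adjusted p = 0.000551), Scarb2 at -0.34 ± 0.11 (0.0364) and Cd68 at -0.27 ± 0.083 (0.0238). For FN they were Msr1 at -0.97 ± 0.27 (0.00777), Marco at 1.83 ± 0.55 (0.0132), Mrc1 at -0.33 ± 0.098 (0.0087) and Cd68 at -0.39 ± 0.083 (0.000672). Without a block these were 3.32, -0.35 and -0.27 for LPS 10 ng/ml and -0.91, 1.93, -0.35 and -0.39 for FN. On library totals without a block Marco was 3.57 and 2.56 and Msr1 -0.26, while Cd68 (0.047 and 0.26) and Mrc1 (0.29) changed sign and Scarb2 was -0.028, against all-gene medians of 0.33 for LPS 10 ng/ml and 0.65 for FN; none of these was called.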

How the results depend on the processing

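The single-gene values of the 9 members over 17 contrasts were recomputed under each setting. Leaving out 1 library at a time gave 1080 values, of which 24 lost and 6 gained a call; the replicate blocks gave 270, of which 0 lost and 52 gained one; the other settings gave 1223, of which 10 lost and 22 gained one and 2 reversed. Sign differences among values uncalled in both fits (142, 10 and 69) were not counted as reversals. The 2 reversals were Cd68 in WT cells on library totals, at -0.60 for LPS 10 ng/ml and -0.52 for FN. The block changed no call other than those given beside the results, and 29 of 72 group levels moved by more than 1 SD on library totals. The cause of these changes was not tested.

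Counts of called members moved by over 1.5 times as follows. With the block nested in genotype they were 5, 8 and 8 for LPS 0.1, LPS 10 and FN in WT cells, 6 for FN in KO cells, 3 and 4 for the LPS 10 and FN interactions, 6 for the WT doses and 5 for FN against LPS 10 in KO cells. With the block over all libraries they were 2, 5 and 5 for the WT stimuli, 4 for FN in KO cells, 2 for KO against WT at LPS 10, 1 for the FN interaction, 2 for the WT doses and 2 for FN against LPS 10 in KO cells. On library totals they were 6 and 6 for LPS 10 and FN in WT cells, 1 for the FN interaction (Scarb1, 0.78), 2 for the WT doses and 2 for FN against LPS 10 in KO cells. The groups alone gave 1 for FN in KO cells, 0 for KO against WT at LPS 0.1 and 0 for the WT doses, and no filter gave 0 for the WT doses. DESeq2 gave 2 for LPS 0.1 in WT cells, 2 for the WT doses and 2 for FN against LPS 10 in KO cells, and limma 2 for the WT doses. Without the libraries richest in Rn45s they were 2, 0 and 2 for these. Leaving out 1 library gave 1 to 2 for LPS 0.1 in WT cells, 0 to 1 for LPS 0.1 in KO cells, 1 to 2 for FN in KO cells, 1 to 2 for KO against WT at LPS 0.1, 0 to 1 for the WT doses and 0 to 1 for FN against LPS 10 in KO cells. Depth limited Olr1 and Marco untreated, with as few as 2 and 4 reads in a library.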

Other observations

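With FN, 9.23% of all genes rose and 7.17% fell in KO cells and 23.7% rose and 26.5% fell in WT cells. The nested replicate block called 44.0% in KO and 72.0% in WT cells. On library totals 879 of 13294 genes were higher and 1157 lower in KO cells, and 1490 and 7389 in WT cells. The counts of the further lists stand beside these shares. Of 13 further scavenger receptor genes, 1 rose and 0 fell in KO cells and 2 rose and 3 fell in WT cells, which became 2 and 6 in KO and 2 and 7 in WT cells in the nested replicate block, and 1 and 1 in KO and 1 and 7 in WT cells on library totals. Cxcl16 rose with FN by 1.58 ± 0.25 in KO cells (edgeR adjusted p = 0.00019) and 2.09 ± 0.25 in WT cells (1.41e-06). Of 15 lipid genes, 0 rose and 2 fell in KO cells and 3 rose and 2 fell in WT cells (1 and 7 in KO and 5 and 5 in WT in the block; 0 and 3 in KO and 2 and 10 in WT on totals). Of 12 lysosomal genes edgeR called 0 in each genotype, with 2 in KO and 1 in WT cells at an unadjusted p under 0.05, DESeq2 called 0 in KO and 1 in WT cells and limma 0 and 1; the block gave 5 lower in KO cells and 6 higher and 1 lower in WT cells, and totals 10 lower in WT cells. Of 13 signalling partners 3 rose and 1 fell in KO cells and 7 rose and 0 fell in WT cells (5 and 4 in KO and 11 and 1 in WT in the block; 3 and 3 in KO and 4 and 4 in WT on totals). Among the transcription factors 5 rose and 6 fell in KO cells and 4 rose and 8 fell in WT cells (2 and 12 in WT on library totals). Cebpa changed by -1.94 ± 0.34 in KO and -5.42 ± 0.40 in WT cells. Cebpb rose by 1.99 ± 0.45 and Pparg, a nuclear receptor for fatty acids, changed by -1.44 ± 0.30 in KO cells. WT means moved the same way, from 33.0 CPM untreated to 145 CPM with FN for Cebpb and from 20.5 to 6.86 CPM for Pparg. Mertk changed by -2.48 ± 0.25 in KO and 0.59 ± 0.24 (adjusted p = 0.0459) in WT cells with FN, the WT value being smaller than the all-gene shift of -0.78 on library totals, and Tlr2 rose by 3.80 ± 0.32 in KO and 3.90 ± 0.32 in WT cells.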
